A study of Homo sapiens with 3 samples.

Results

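FDXR, RRM2B, PHLDA3, TRIAP1, AIFM2 and SULF2 are targets of the tumour suppressor p53 whose products work in metabolism and signalling, and their expression was measured in drug-treated colon cancer cells. They are 6 of 18611 genes measured, and they were chosen by name with values of these same arrays already known, so their changes are given as a description and carry no test. Every gene probe named for one of them was used, which gave 1 probe for each of 5 genes and 2 probes for AIFM2. The probe of FDXR lies in a strip of one array where the control signal was low and is treated apart.

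The cells were YB5, a single clone of the human colon cancer line SW48 that holds 1 copy of a GFP reporter shut off by methylation of its CMV promoter. They received decitabine at 25 nM, carboplatin at 20 μM, or both drugs at these doses, once every 24 h on days 1 to 4, and RNA was taken on day 6. Decitabine is a cytidine analogue that traps DNA methyltransferases and lowers DNA methylation, and carboplatin forms platinum adducts on DNA. The study asked which genes each drug and their combination turn on. The control, shared in kind by all arrays, was YB5 treated with the solvent DMSO.

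p53 is a transcription factor that accumulates after DNA damage, binds paired 10-base elements near its target genes and raises their transcription. Its best known targets halt the cell cycle or kill the cell. A further set, to which these genes belong, adjusts mitochondrial redox reactions, the supply of DNA building blocks, survival signalling by AKT and growth factor signals at the cell surface.

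Each of 3 dual-colour Agilent arrays, all on 1 slide, set RNA of treated cells (Cy3) against control RNA (Cy5), and no array exchanged the dyes. There was 1 array per treatment, so there is no replicate error, no p-value is given, and a dye preference of a probe is part of every change. The arrays are named after their sample labels: the decitabine-labelled array, the carboplatin-labelled array and, for both drugs, the combination array. Changes are given as log2 of treated over control, after background correction and loess normalization, and a gene is counted as up or down at a ratio of at least 1.5. Of the gene spots, 68.2 to 70.3% of control signals and 65.8 to 68.5% of treated signals were well above background. As a scale for technical error within an array, probes spotted 10 times had a pooled SD of the log2 change of 0.230 on the decitabine-labelled array, 0.0751 on the carboplatin-labelled array and 0.0769 on the combination array, and 0.0776 on the first of these outside its first 9 columns of spots. Markers of colon epithelium were detected in the control channel for 8 to 10 of 12 genes, against 1 of 6 for fibroblasts, 3 to 4 of 6 for leukocytes and 1 of 4 for endothelium. In treated cells of the carboplatin-labelled array 3 fibroblast markers were detected, and their part in the results was not tested.

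A pair of facts about the arrays bears on all that follows. On the decitabine-labelled array the control signal of columns 1 to 9, 10.1% of gene spots, was low, at −0.90 on the log2 scale against the mean of the other arrays, and the gene spots there had a median change of 0.75 against −0.02 elsewhere. The study also lists by name genes changed by carboplatin that belong to its top annotation categories, which are a part of all the genes it counts as changed. These lists do not follow the array labels. Of 146 genes listed as raised by carboplatin, FDXR, PHLDA3 and AIFM2 among them, 125 were up on the decitabine-labelled array, 19 on the carboplatin-labelled array and 56 on the combination array, where 10.6, 2.76 and 7.47% of all genes were up. Of the 70 among them with no spot in columns 1 to 9, 51, 14 and 46 were up. Of 53 genes listed as lowered, 40, 4 and 37 were down in the same order, against 4.67, 1.49 and 5.93% of all genes. The study chose those lists on these arrays. No array was reassigned, and whether the labels of the single-drug arrays are right was not tested.

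FDXR encodes ferredoxin reductase, the mitochondrial flavoprotein that passes electrons from NADPH to the ferredoxins, which serve steroid synthesis and the assembly of iron-sulphur clusters. Its probe, read from the minus strand, lies on chromosome 17 from 72858650 to 72858709 (GRCh37, as for all probes here). The stretch just before the FDXR start is shown because it ends with an exact match to the p53 decamer, the 10-base unit of the p53 element, set in capitals. It is the minus strand of chr17:74872995-74873244 (GRCh38.p14, RefSeq), written 5′ to 3′, and the last base is the one before the start.
FDXR upstream: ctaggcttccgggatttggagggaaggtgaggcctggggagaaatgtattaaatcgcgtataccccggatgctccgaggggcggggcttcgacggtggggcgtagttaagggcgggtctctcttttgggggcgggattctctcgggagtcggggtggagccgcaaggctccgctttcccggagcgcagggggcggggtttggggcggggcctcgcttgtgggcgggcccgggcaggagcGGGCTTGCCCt
The decamer covers positions −11 to −2. The search used the p53 decamer consensus with no mismatch, which reads the same on both strands, over 300-base RefSeq windows that run from 250 bases before to 50 bases after a start. Among 35116 such windows 6.63% held an exact decamer. RefSeq windows were at hand for FDXR, TRIAP1, AIFM2 and SULF2, 8 windows in all, and the one shown was the only one with a match. A match is a string of letters and not a measured binding site.

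FDXR was among the genes with the largest changes on these arrays, but the size of its change on the decitabine-labelled array depends on the control that is used. The treated level was 17.11 on the decitabine-labelled array, 15.78 on the carboplatin-labelled array and 17.16 on the combination array, all log2 levels scaled between arrays. The control level was 13.24, 14.68 and 14.71 in the same order. Treated FDXR was thus nearly alike on the decitabine-labelled and combination arrays, 0.05 apart, while the control on the decitabine-labelled array lay 1.46 below the mean of the other controls, and the other controls were 0.04 apart. As these are RNAs of whole cultures, more cells that express a gene and more RNA per cell cannot be told apart here or below. The raw signals show the same pattern: the control spot read 15614 units on the decitabine-labelled array against 43353 and 39046 on the carboplatin-labelled and combination arrays, and the treated spot read 92989, 35226 and 89944.

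Within each array FDXR changed on the log2 scale by 3.87 on the decitabine-labelled array (14.6-fold), 1.10 on the carboplatin-labelled array (2.14-fold) and 2.45 on the combination array (5.46-fold). Set against the mean control of the carboplatin-labelled and combination arrays, an alternative chosen after seeing the data, the changes were 2.41, 1.08 and 2.47. On that footing the decitabine-labelled and combination arrays gave FDXR nearly the same change. The spot is in column 9, the last of the strip, where the 49 other gene spots within 25 rows had a median change of 0.51 with quartiles of −0.07 and 1.13. FDXR had the largest change on that array of the 1921 genes whose probe has a spot in columns 1 to 9. Median centring in place of loess brought its change on the carboplatin-labelled array to 0.47, below the 1.5-fold line.

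**Figure D1:**
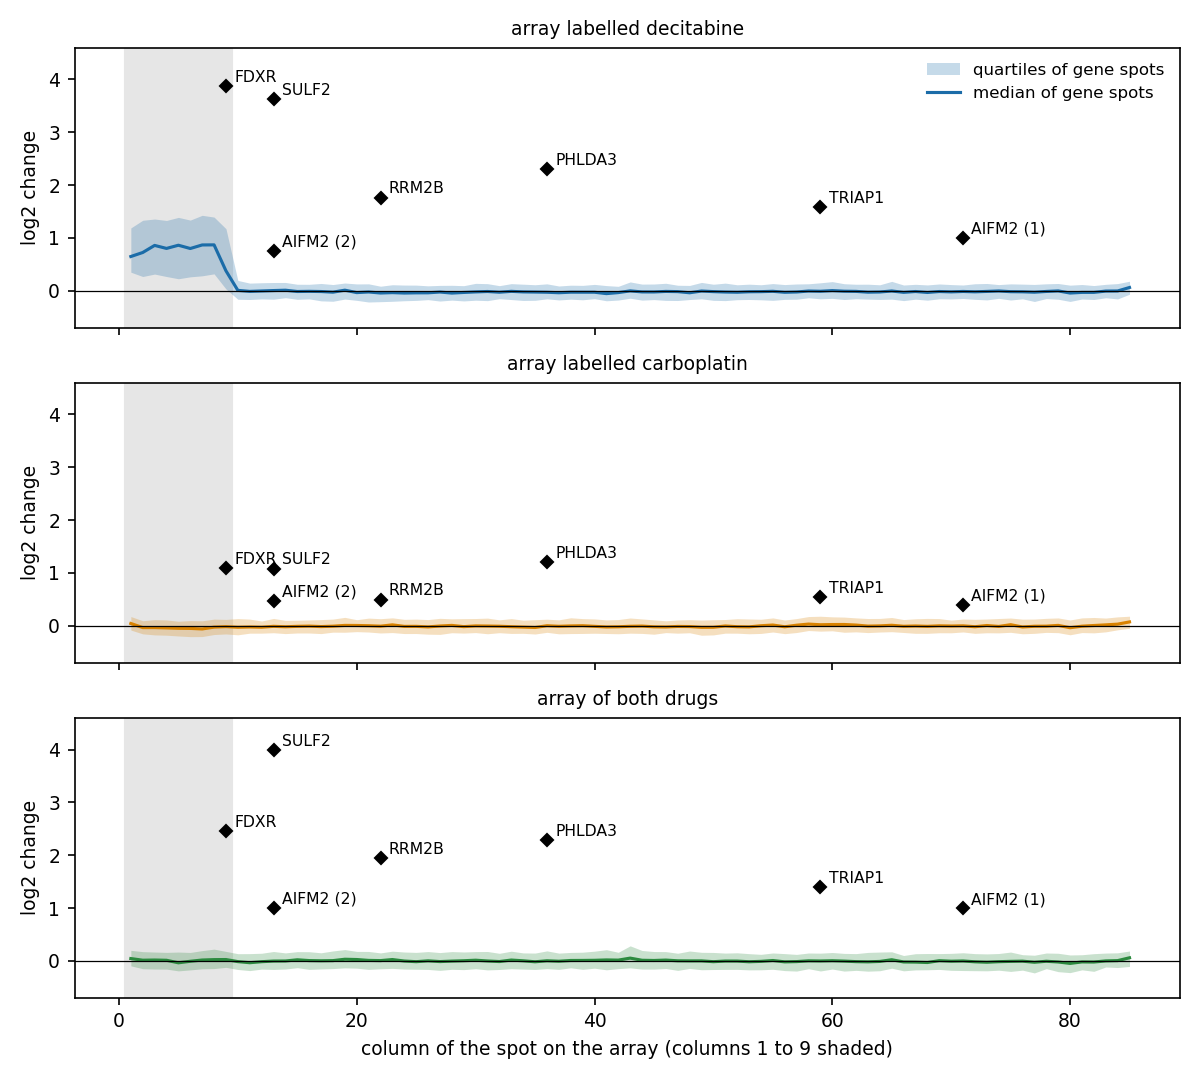
Change by column of spots, 1 panel per array: the line is the median log2 change (treated over control) of the gene spots in a column, the band their quartiles, and diamonds are the probes of the 6 genes. Columns 1 to 9 (shaded) stand at a median of 0.75 on the decitabine-labelled array and near 0 on the others, and FDXR, in column 9, is the only one of the 6 genes inside the strip.

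RRM2B encodes the p53-induced small subunit of ribonucleotide reductase, which makes deoxynucleotides for DNA repair and for mitochondrial DNA outside S phase. Its probe is on chromosome 8 from 103217175 to 103217234, minus strand. Its spots were dim, with raw control signals of 364, 339 and 352 units over a local background of 69 to 72 on the decitabine-labelled, carboplatin-labelled and combination arrays. Control levels were 7.97, 7.89 and 8.04 and treated levels 9.73, 8.38 and 9.99. The treated level was above all 3 controls on each array, and by least on the carboplatin-labelled array. The log2 changes were 1.76, 0.50 and 1.94 in that order, or 3.40-fold, 1.41-fold and 3.85-fold. RRM2B was therefore up on the decitabine-labelled array and on the combination array, and short of the 1.5-fold line on the carboplatin-labelled array, where the log ratio of the scanner software put it at 0.63, past the line.

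PHLDA3 encodes a small pleckstrin-homology protein that competes with AKT for membrane lipids and so holds AKT back. Its probe is on chromosome 1 from 201434832 to 201434891, minus strand. The control levels were 11.81, 11.64 and 11.73 on the decitabine-labelled, carboplatin-labelled and combination arrays, and the treated levels 14.12, 12.85 and 14.02. The log2 changes were 2.31 (4.95-fold), 1.20 (2.30-fold) and 2.29 (4.88-fold). On the carboplatin-labelled array PHLDA3 had the largest reported change of the 6 genes, but in the authors' deposited values FDXR, at 1.68, and SULF2, at 1.06, were above its 1.05, and both were above it against the mean control of the other arrays. The changes of PHLDA3 on the other arrays were 0.02 apart, less than the SD of repeated spots. It was up on all 3 arrays as reported and under all 10 alternatives run for it. These are not all distinct: for a gene with a single probe, the mean over all probes is the reported value itself. The alternative controls also coincide on the decitabine-labelled array.

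TRIAP1 encodes a small mitochondrial chaperone that helps carry phosphatidic acid between the mitochondrial membranes and opposes the release of cytochrome c. Its probe is on chromosome 12 from 120882024 to 120882083, minus strand. Control levels were 11.38, 11.18 and 11.28 and treated levels 12.97, 11.71 and 12.67 on the decitabine-labelled, carboplatin-labelled and combination arrays. The log2 changes were 1.59, 0.54 and 1.39, or 3.00-fold, 1.45-fold and 2.62-fold. TRIAP1 was up on the decitabine-labelled array and on the combination array, and stayed under the 1.5-fold line on the carboplatin-labelled array as reported and under all 10 alternatives. As for PHLDA3, these alternatives are not all distinct.

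TRIAP1 is transcribed away from GATC, a subunit of the mitochondrial glutamyl-tRNA amidotransferase, from a start 60 bases from that of GATC. The 59 bases between the starts are shown since they are the whole of the sequence that separates this p53 target from a neighbour outside the p53 lists. They lie at chr12:120446385-120446443 (GRCh38.p14, RefSeq) and are given on the minus strand, which reads towards the TRIAP1 start.
TRIAP1 to GATC: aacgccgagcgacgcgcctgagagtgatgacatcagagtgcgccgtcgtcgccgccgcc
The log2 change of GATC was 0.40 on the decitabine-labelled array, 0.27 on the carboplatin-labelled array and 0.43 on the combination array. Each is below the 1.5-fold line and below the change of TRIAP1 on the same array. The other 2 probes of GATC ranged from −0.27 to 0.46 over the arrays. Median centring turned the change of GATC to −0.10 and −0.14 on the decitabine-labelled and carboplatin-labelled arrays.

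AIFM2, also called FSP1, encodes an oxidoreductase that recycles coenzyme Q10 at membranes and guards lipids against peroxidation. Its brighter probe is on chromosome 10 from 71874025 to 71874084 and the second from 71872065 to 71872124, both on the minus strand. With the brighter probe, control levels were 14.36, 14.26 and 14.24 and treated levels 15.36, 14.66 and 15.24 on the decitabine-labelled, carboplatin-labelled and combination arrays. The second probe gave controls of 11.50, 11.45 and 11.51 and treated levels of 12.26, 11.92 and 12.50. Both probes placed the treated cells above all 3 controls on each array. The log2 changes were 1.00, 0.40 and 0.99 with the brighter probe and 0.75, 0.48 and 1.00 with the second, so the probes differed by 0.25 at most, on the decitabine-labelled array. AIFM2 had the smallest change of the 6 genes on every array. Median centring brought the brighter probe to 0.36, −0.18 and 0.40, which takes AIFM2 under the 1.5-fold line everywhere and below 0 on the carboplatin-labelled array.

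SULF2 encodes an extracellular sulphatase that removes 6-O-sulphate groups from heparan sulphate chains and thereby alters how growth factors and Wnt ligands reach their receptors. Its probe is on chromosome 20 from 46286424 to 46286483, minus strand, in column 13, outside the low-control strip. Control levels were 11.28, 11.20 and 11.08 and treated levels 14.92, 12.28 and 15.06 on the decitabine-labelled, carboplatin-labelled and combination arrays. The log2 changes were 3.63 (12.4-fold), 1.08 (2.12-fold) and 3.99 (15.9-fold). Among all genes SULF2 ranked 4th from the top on the decitabine-labelled array, 97th on the carboplatin-labelled array and 7th on the combination array. It was up on all 3 arrays as reported and under all 10 alternatives run for it, which gave 3.06 to 3.78, 0.60 to 1.17 and 3.50 to 4.01. Here too the alternatives are not all distinct.

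**Figure D2:**
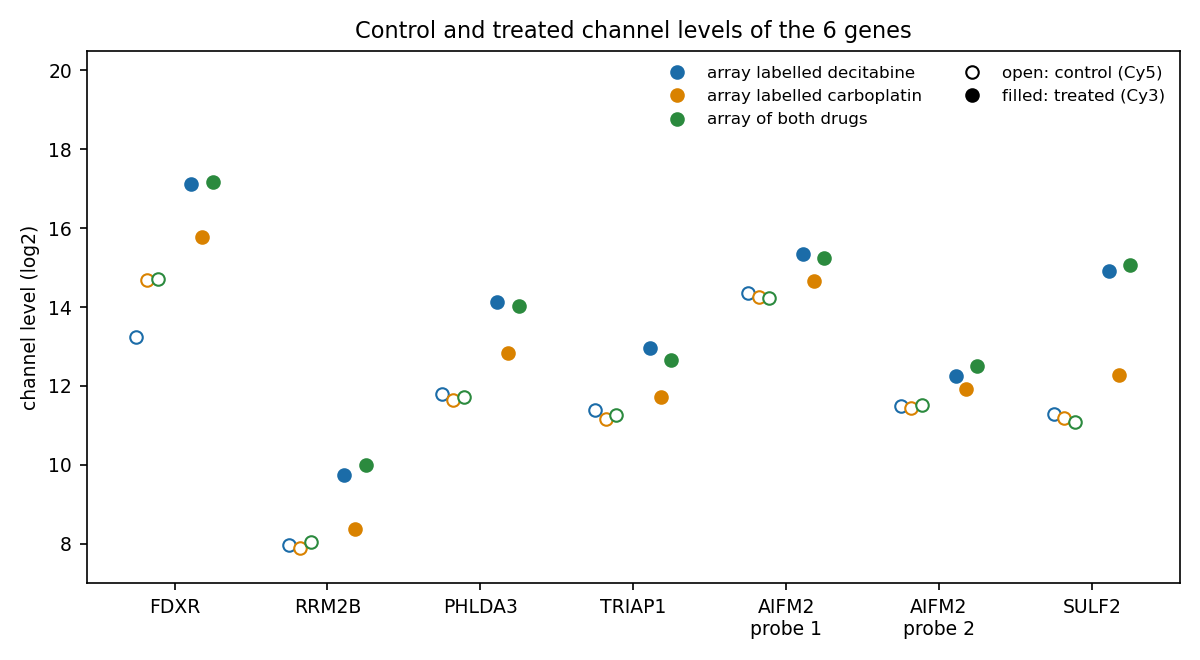
Channel level (log2, scaled between arrays) of each probe of the 6 genes, with open circles for the 3 control channels and filled circles for the 3 treated channels, coloured by array; 1 spot stands behind each circle. Treated circles lie above all controls of the same probe, the controls lie close together except for FDXR on the decitabine-labelled array, at 13.24 against 14.68 and 14.71, and the carboplatin-labelled array has the lowest treated circle of each probe.

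Counted together, all 6 genes were up on the decitabine-labelled array, where 10.6% of all genes were up, and 3 of 6 (FDXR, PHLDA3 and SULF2) on the carboplatin-labelled array, where 2.76% were. On the combination array all 6 were up, against 7.47% of all genes. The share of all genes up on the carboplatin-labelled array was 7.79% by the log ratio of the scanner software and 8.99% under median centring, and on the combination array 12.9% and 4.34%. None of the 6 was down on any array, where 4.67, 1.49 and 5.93% of all genes were down. Their medians of the log2 change were 2.04, 0.81 and 2.12 in that order, while the median over all genes was within 0.01 of 0. Without FDXR, 5 of 5 were up on the decitabine-labelled array, where 4.86% of genes outside columns 1 to 9 were up, 2 of 5 on the carboplatin-labelled array and 5 of 5 on the combination array, with medians of 1.76, 0.54 and 1.94. These counts describe genes that were picked for such changes, and nothing is read from them against the background.

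The 3 control channels are the only measure of spread between hybridizations. Over these, the SD of a control level was 0.0334 to 0.104 (n = 3 channels) for all probes but FDXR, at 0.841. Outside FDXR, the smallest change, 0.40 for the brighter probe of AIFM2 on the carboplatin-labelled array, was larger than the widest range of controls for 1 probe, 0.207. The controls all carry the same dye, so their range holds no dye preference and no choice of normalization and gives no error for a change. Median centring put the same AIFM2 change at −0.18 and that of TRIAP1 there at 0.07. Whether the controls are 1 RNA extract or several is not given in the sources used here, so the spread of the controls may be technical alone.

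**Figure D3:**
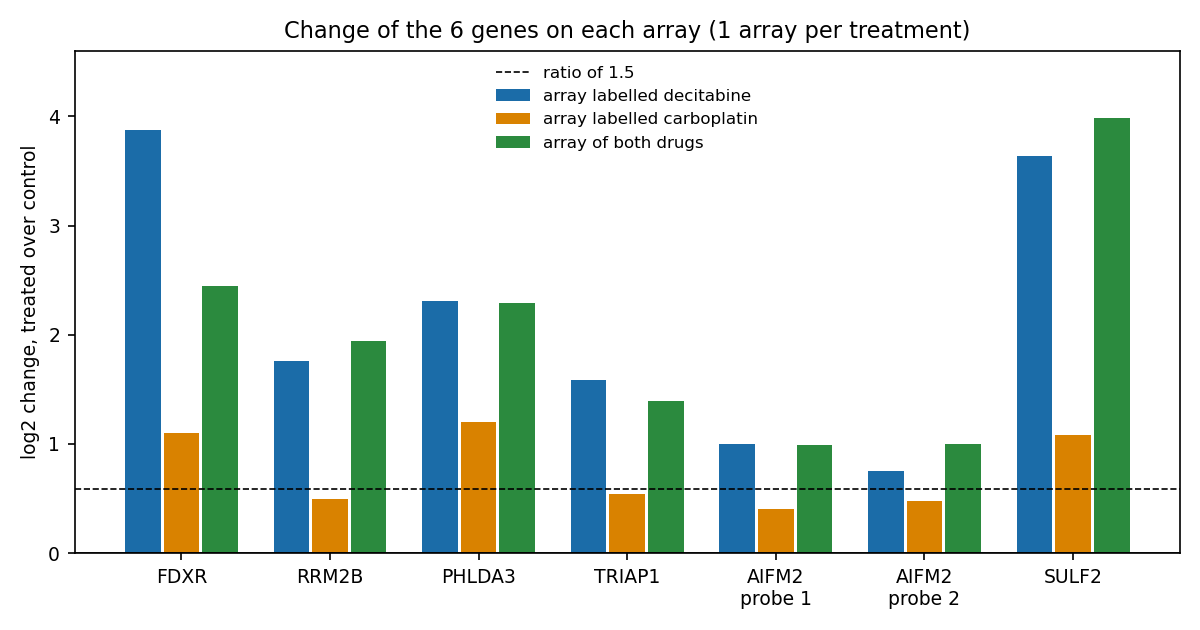
Log2 change of treated over control for each probe of the 6 genes, 1 bar per array, with a dashed line at a ratio of 1.5. The carboplatin-labelled array has the shortest bar for each probe, and RRM2B, TRIAP1 and both AIFM2 probes end below the line there.

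With both drugs the changes of the genes other than FDXR differed from those on the decitabine-labelled array by 0.35 at most. The change on the combination array minus that on the decitabine-labelled array was 0.18 for RRM2B, −0.02 for PHLDA3, −0.19 for TRIAP1, −0.01 and 0.24 for the AIFM2 probes and 0.35 for SULF2. For FDXR it was −1.42, and 0.05 by the treated levels alone. Against the carboplatin-labelled array the differences were all positive, from 0.52 for the second AIFM2 probe to 2.90 for SULF2. As reported, the change with both drugs reached the sum of the changes on the single-drug arrays in no gene. It fell short by a log2 difference of −0.32 for RRM2B, −0.41 for the brighter AIFM2 probe, −0.73 for TRIAP1 and SULF2, −1.22 for PHLDA3 and −2.52 for FDXR, the last with the low control in the sum. Under median centring AIFM2 was above its sum, at 0.40 with both drugs against 0.36 and −0.18 on the single-drug arrays. The other genes stayed below theirs, by smaller gaps than reported. RRM2B was at 1.65 against 1.39 and 0.33, TRIAP1 at 0.93 against 1.04 and 0.07, and SULF2 at 3.50 against 3.06 and 0.60. A dye preference of a probe enters both terms of a sum but the change with both drugs only once, so it is part of each gap. Each of these values rests on single spots of 3 arrays.

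The 6 genes were set against a list of 59 other p53 targets, of which 58 were measured. Of the 58, 44 were up on the decitabine-labelled array, 14 on the carboplatin-labelled array and 44 with both drugs, against 10.6, 2.76 and 7.47% of all genes, and their medians were 1.35, 0.31 and 1.27. Down calls numbered 0, 1 and 0, the one being KITLG, a growth factor, at −0.89, whose other 2 probes were positive. Among the 45 with no spot in columns 1 to 9, 32, 9 and 33 were up. The lists were written with results of these arrays known and are no independent support. SULF2 was exceeded by 1 of the 58 on the decitabine-labelled array, by 2 on the carboplatin-labelled array and by 1 with both drugs. The gene above it on all arrays was GDF15, a stress cytokine, at 4.96, 1.65 and 5.13. The other on the carboplatin-labelled array was PLK3, a stress kinase, at 1.12. FDXR was exceeded by 1, 2 and 5 of the 58, the first resting on the low control, PHLDA3 by 13, 1 and 6 and RRM2B by 19, 16 and 10. TRIAP1, with 21, 14 and 25 above it, followed, and AIFM2 had 35, 23 and 36 above it.

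By role, 17 of 18 targets of arrest and feedback were up on the decitabine-labelled array, 6 on the carboplatin-labelled array and 16 with both drugs. MDM2, which marks p53 for destruction, changed by 3.34, 0.63 and 3.25. On the carboplatin-labelled array its other 3 probes ranged from 0.09 to 0.84, and median centring put the change given at 0.19. CDKN1A, the p21 inhibitor of cell cycle kinases, changed by 2.97, 0.96 and 2.91. That probe has spots in the low-control strip and control levels of 13.39, 12.02 and 13.00. On the carboplatin-labelled array its change ran from −0.21 to 0.98 over 9 alternatives, the lowest against the mean control of the other arrays. The other probe of CDKN1A changed by 3.56, 1.31 and 3.39. Of 15 targets listed under apoptosis 10, 3 and 10 were up, and of 25 others in repair, metabolism and signalling 17, 5 and 18 were. In the apoptosis list 6 of the 15 have a spot in the low-control strip. Outside the strip, 5 of its genes were up on the decitabine-labelled array, 1 on the carboplatin-labelled array and 6 with both drugs. BBC3 was not up by its brightest probe, at −0.09, 0.24 and −0.005. Its other 2 probes were up, at 2.09 and 2.55, 0.69 and 0.81, and 1.82 and 2.11. BAX and BID went the other way. BAX was counted as up on every array, but the lower of its other probes was at −0.02, 0.34 and 0.08. BID was counted as up on the decitabine-labelled array, at 1.47, but its other probe was at −0.13.

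**Figure D4:**
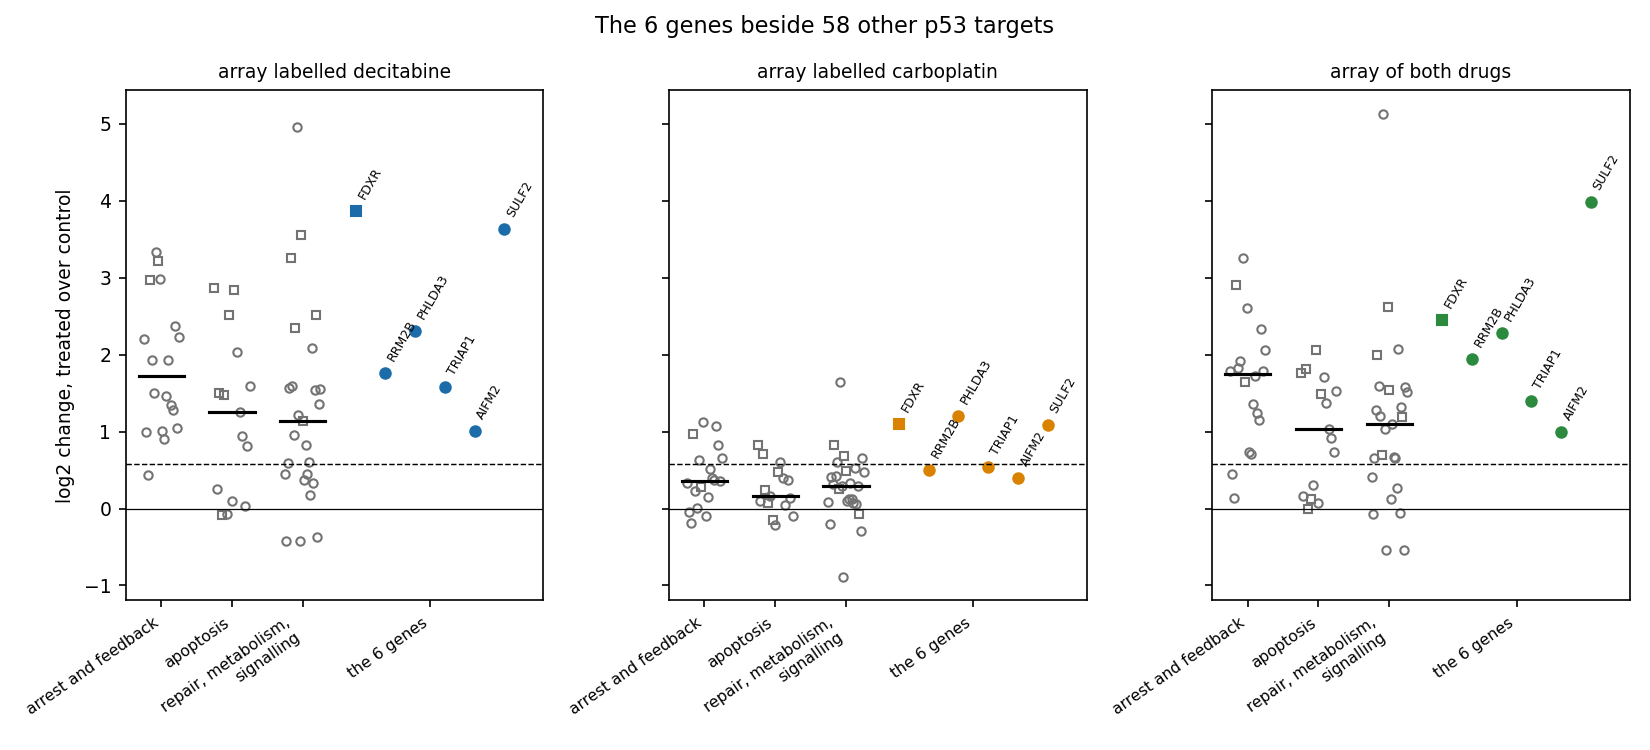
Log2 change (treated over control) of 58 other p53 targets in 3 groups (grey, bars at the group medians) and of the 6 genes (coloured), 1 panel per array; squares are probes with a spot in columns 1 to 9 and the dashed line is a ratio of 1.5. SULF2 stands near the top of all panels and AIFM2 lowest of the 6, and on the carboplatin-labelled array most targets lie below the line, with 14 of 58 above it.

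Partners and relatives of the 6 genes are given next, beside the 10.6% of all genes that were up on the decitabine-labelled array, 2.76% on the carboplatin-labelled array and 7.47% with both drugs. In the same order 4.67, 1.49 and 5.93% of all genes were down. For FDXR, 2 of 13 genes of mitochondrial electron transfer and iron-sulphur assembly were up on the decitabine-labelled array, 0 on the carboplatin-labelled array and 2 with both drugs, and none was down. Among them was ISCU, the scaffold of iron-sulphur clusters, at 1.24, 0.57 and 1.19. The ferredoxins that FDXR serves were near 0, with FDX1 at 0.12, −0.06 and −0.12 and FDX2 at 0.26, 0.24 and 0.18, and median centring put both below 0 on all arrays.

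For RRM2B, 2, 0 and 1 of 8 genes of deoxynucleotide supply and mitochondrial DNA upkeep were up, all of them in columns 1 to 9, and none was down. The other subunits of the enzyme stayed under the line. RRM1, the large subunit with which RRM2B pairs, changed by −0.39, −0.04 and −0.30. RRM2, the S-phase small subunit, changed by −0.22, 0.18 and −0.09, with the middle value at −0.29 under median centring. The other 2 probes of RRM2 differed in sign from these in part. They were at −0.14 and 0.30 on the decitabine-labelled array and at −0.43 and −0.08 on the carboplatin-labelled array. The changes of RRM2B, at 1.76, 0.50 and 1.94, thus stood above those of both other subunits on each array.

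For PHLDA3, 1, 1 and 2 of 10 relatives and AKT pathway genes were up. PHLDA1, a relative with the same domain, changed by 2.06 on the decitabine-labelled array and 1.94 with both drugs, close to PHLDA3 there, but by −0.19 on the carboplatin-labelled array, where PHLDA3 was at 1.20. Its other 3 probes had the same signs on each array. PHLDA2, the third of the family, changed by 0.14, −0.25 and 0.13, and median centring put all 3 below 0. AKT1, the kinase that PHLDA3 restrains, changed by 0.45, 0.93 and 0.72.

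For TRIAP1, 1, 0 and 1 of 11 genes of mitochondrial lipid transfer, with HSPA1A and the neighbour GATC, were up and none was down. The one on the decitabine-labelled array was CRLS1, cardiolipin synthase, at 1.48 in the low-control strip and 0.12 with both drugs, and the one with both drugs was HSPA1A, a heat shock protein, at 0.62. For AIFM2, 1, 0 and 0 of 10 genes of redox defence against ferroptosis were up, the one being AIFM3 at 0.97 in the low-control strip, and 1 was down on each array. Its relative AIFM1, the mitochondrial apoptosis-inducing factor, changed by −0.42, −0.27 and −0.36, opposite in sign to AIFM2. SLC7A11, the cystine importer, was the gene down on the decitabine-labelled array and with both drugs, at −0.66 and −0.73, and TFRC, the transferrin receptor, that on the carboplatin-labelled array, at −0.67.

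For SULF2, 6, 1 and 4 of 25 genes of heparan sulphate synthesis, modification and carriage were up. In the same order 4, 2 and 4 were down, where 4.67, 1.49 and 5.93% of all genes were. Outside columns 1 to 9, 2, 1 and 3 of 21 were up, and 4.86% of all genes there were up on the decitabine-labelled array. SDC4, a carrier of heparan sulphate chains, changed by 2.42, 0.58 and 2.27, and B4GALT7, which builds the linker to the carrier, by 0.74, 0.40 and 0.80. The others up outside the strip were SDC3, another carrier, at 0.71 on the carboplatin-labelled array and B3GAT3, also a linker enzyme, at 0.70 with both drugs. Median centring put B4GALT7 at 0.36, 0.15 and 0.52 and B3GAT3 with both drugs at 0.27, all under the 1.5-fold line. It put SDC4 at 1.84, 0.09 and 1.77. The genes that were down included GLCE, the epimerase of the chain, at −1.20, −0.61 and −1.55, XYLT1, which starts the chain, at −0.82, −0.71 and −1.14, and HPSE, heparanase, which cuts it, at −0.82, −0.26 and −0.98. SULF1, the other 6-O-endosulphatase, went the opposite way to SULF2. It was at least 1.88-fold lower on the decitabine-labelled array and at least 1.75-fold lower with both drugs, with the treated signal not well above background there, and its change on the carboplatin-labelled array was −0.28. Such a limit sets the control signal against the treated signal of the probe itself or the lowest signal well above background, whichever is higher, and is open to dye bias. Here it was the signal of the probe itself. Over 9 alternatives the log2 change of SULF1 ran from −3.90 to −0.85 on the decitabine-labelled array and from −3.25 to −0.73 with both drugs. The limits given thus hold for the reported processing alone.

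**Figure D5:**
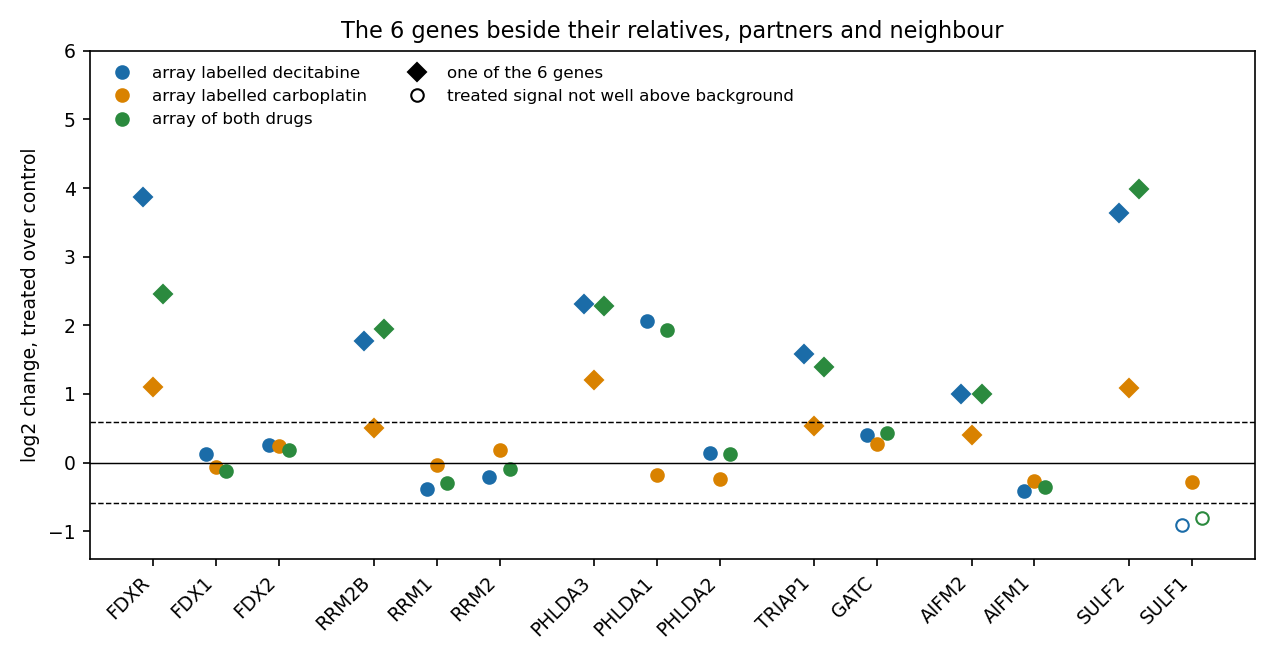
Log2 change (treated over control) of each of the 6 genes (diamonds, brighter probe for AIFM2) beside its relatives, partners or neighbour (circles), coloured by array; dashed lines mark a ratio of 1.5 in either direction and open circles a treated signal not well above background, where the change is known only as a limit. FDX1, FDX2, RRM1, RRM2, PHLDA2, GATC and AIFM1 lie between the lines, PHLDA1 is level with PHLDA3 except on the carboplatin-labelled array, and SULF1 lies below 0 while SULF2 reaches 3.99.

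The genes whose 3 changes lay nearest to those of each of the 6 were looked up by Euclidean distance over the log2 changes of the 3 arrays, among 11618 genes outside columns 1 to 9 that were well above background in all channels. Nearest to FDXR were PLK3, ALDH3A1 and MDM2, at distances of 0.902, 0.986 and 1.08, which rest on its 3.87 on the decitabine-labelled array and so on the low control there. For RRM2B they were IER3, NTN1 and FHL2, from 0.166, and for PHLDA3 the first were TXNIP and APOBEC3C, from 0.231. TRIAP1 had RPS27L at 0.130, then ZNF79 and KANK3. AIFM2 had PHPT1 at 0.0235, then PRKX and JMJD4. SULF2 had LAMC3, a laminin chain, at 0.349 with changes of 3.36, 0.91 and 3.87, then DQX1 and ALDH3A1. The distances are descriptions over 3 arrays.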

How the data were processed

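The authors hybridized RNA of 3 treatments to dual-colour Agilent arrays (probe positions on GRCh37) and read them with Agilent Feature Extraction, version 9.5.3.1 in the file headers and 8.5.1.1 in the submitters' processing notes. The deposited scanner files give spot intensity in both channels, local background, and the scanner software's log10 ratio of red over green. The authors' deposited table gives log2 ratios, loess normalized with limma under R 3.0.2 by the submitters' notes, with its direction unstated. It correlated with treated over control of the scanner files at r = 0.867, 0.838 and 0.936 over probes, with column medians of −0.01, 0 and −0.01, and whether it was centred further is unknown.

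Here mean intensities were corrected by normexp (offset 50) and loess in limma 3.58.1 (R 4.3.3; files were read with jsonlite 2.0.0 and version 1.17.8 of data.table), without control spots and 276, 111 and 89 outlier spots, and channel levels were scaled by Aquantile. Of 41000 probes, 29381 matched a RefSeq gene, and the brightest probe stood for a gene. Sequences were searched with Python 3.11.15 and pandas 2.3.3. The number of arrays limits the precision, and calls are ratios of at least 1.5 without a test. Background correction and loess were tested on simulated data with an even background and no low-control strip, scored on bright spots alone. Scaling between arrays and the choice of probes were not tested in this way. Members, lists and alternatives were chosen with earlier results of these data known. Genes named beside the 6 are partners and relatives listed by name, up to 3 at each end of a list by the change with both drugs, and the 3 nearest in pattern. CRLS1, TFRC, SDC3 and B3GAT3 were named after their values were seen, to account for small counts. Some genes that this rule names are not reported here. Alternatives were other background corrections, normalizations, controls, probe choices and folds, and the authors' values.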

Additional observations from a re-analysis of the deposited data

How the results depend on the processing

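Counts of the 6 genes up stayed within 1.5 times of the reported ones under every alternative run: 5 to 6 on the decitabine-labelled array, 2 to 4 on the carboplatin-labelled array and 5 to 6 with both drugs. All signs of the 6 genes held except that of AIFM2 on the carboplatin-labelled array under median centring. For the other p53 targets, median centring gave medians of 0.88 on the decitabine-labelled array, −0.017 on the carboplatin-labelled array and 0.88 with both drugs, and 5 genes up on the carboplatin-labelled array, while a fold of 2 left 3 up there. Median centring also moved the median of all genes to −0.14, −0.16 and −0.10. On the decitabine-labelled array the median of these targets was 1.44 with a normexp offset of 16, 1.22 without columns 1 to 9, 1.24 against the mean of the other arrays' controls (the alternative added after seeing the data gives the same value there) and 1.27 with the mean over all probes. With both drugs it was 1.37 by the scanner software's log ratio. FDXR on the decitabine-labelled array ranged from 2.41 to 3.87, and 2.84 in the authors' deposited values, and has no value without columns 1 to 9. No paired analysis was possible because each treatment has 1 array. No replicate could be left out for the same reason. RRM2B on the decitabine-labelled array was 1.91 with an offset of 16, 2.13 by the scanner software and 1.39 under median centring. The causes of these moves were not tested.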
